A study of Mus musculus with 9 samples.

Results

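Interferon-stimulated genes are the genes that a cell turns on when it senses interferon. The set described here holds 45 such genes, chosen by symbol from the 41978 genes of the expression table: the receptor chains, the transcription factors that carry the signal, and the antiviral and immune effectors they induce. All 45 were found in the table, and all 45 passed the filter on low values (at least 1 TPM, the read count per length scaled to a fixed sum per sample, in at least 3 samples) that left 30693 genes for testing. The members were measured by bulk RNA-seq in SP4 thymocytes, the CD4 single-positive T cells of the thymus that have passed positive selection, from Nur77-eGFP BAC Tg mice. In these mice a bacterial artificial chromosome carries GFP under the control of the Nr4a1 (Nur77) locus, so GFP is used as a reading of signalling through the T cell receptor. All samples carried the reporter, on a C57BL/6 background, and all came from one gate of semi-mature cells (CD25-, CD69+, CD24+, CD4+, CD8- by the labels, while the study's text gives CD24 as low in one place and high in another). The groups were sorted by reporter brightness: GFPlo, GFPmed and GFPhi were the lowest, medium and highest 10% of the GFP distribution, with 3 biological replicates each and 9 samples in all. No treatment, infection or added interferon was part of the design. Whether a replicate number marks shared mice, and whether mice were pooled, was not given in the sources used here, so p-values measure the spread between these 9 samples.

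Type I interferons (the α and β forms) bind a receptor made of Ifnar1 and Ifnar2, whose kinases Jak1 and Tyk2 activate Stat2. Stat2 acts with Irf9 in a complex that binds the interferon-stimulated response element, a DNA site built on a repeated GAAA core, and so switches on antiviral genes such as the Ifit, Oas and Mx families. Interferon-γ uses its own receptor, many of its target genes carry a TTCNNNGAA site, and it favours Irf1, the guanylate-binding proteins and the immunity-related GTPases. In the thymus, medullary epithelial cells are known to make interferon-β without infection, and single-positive thymocytes are known to gain interferon-response transcripts as they mature in the medulla.

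The DNA before the start sites of the members was read first. RefSeq windows on GRCm38.p6, from 250 bases before to 50 bases after the start, were at hand for 34 of the 45 members. The letters GAAA, 2 bases of any kind and GAAA, searched on both strands, stood in the window of 17 of these 34 genes, against 1079 of the 27025 genes with a window (3.99%). The palindrome TTCNNNGAA, which does not contain the first motif, stood in 10 of the 34 (29.4%) against 9.55% of all genes. The stretches of 160 bases that end at the base before the start site are shown, with every match of the GAAA motif in capitals (TTTC where it lies on the other strand). Ifit3 and Ifit1 have a pair of matches each and had some of the largest differences described below, Slfn5 and Igtp have a single match and passed the test, and Oas3 and Gbp3 carry the motif as well but had lower means in GFPhi than in GFPlo samples.
Ifit3 (chr19:34583369-34583528, + strand): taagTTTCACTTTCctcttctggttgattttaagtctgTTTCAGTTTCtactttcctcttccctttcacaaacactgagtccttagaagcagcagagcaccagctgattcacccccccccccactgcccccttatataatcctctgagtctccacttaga
Ifit1 (chr19:34640729-34640888, + strand): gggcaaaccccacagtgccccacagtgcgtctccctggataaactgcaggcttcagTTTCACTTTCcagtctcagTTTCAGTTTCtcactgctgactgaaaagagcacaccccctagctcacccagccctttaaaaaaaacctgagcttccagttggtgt
Slfn5 (chr11:82951942-82952101, + strand): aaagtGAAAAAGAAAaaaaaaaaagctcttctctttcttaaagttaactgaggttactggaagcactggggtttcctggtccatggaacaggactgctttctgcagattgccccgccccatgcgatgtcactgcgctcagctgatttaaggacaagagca
Igtp (chr11:58199396-58199555, + strand): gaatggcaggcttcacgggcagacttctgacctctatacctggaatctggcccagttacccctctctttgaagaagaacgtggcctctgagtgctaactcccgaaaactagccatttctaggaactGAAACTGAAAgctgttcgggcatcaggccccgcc
Oas3 (chr5:120777660-120777819, - strand): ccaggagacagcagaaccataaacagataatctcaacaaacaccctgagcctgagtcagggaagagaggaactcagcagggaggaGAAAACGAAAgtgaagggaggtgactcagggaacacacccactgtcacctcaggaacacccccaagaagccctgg
Gbp3 (chr3:142559884-142560043, + strand): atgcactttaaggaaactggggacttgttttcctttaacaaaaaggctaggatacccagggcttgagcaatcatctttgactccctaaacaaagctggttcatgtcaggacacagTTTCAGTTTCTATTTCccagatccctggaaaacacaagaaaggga
Counted from the start site, the matches lay between bases -156 (Ifit3) and -25 (Igtp). The presence of the letters is a description of the window and does not say that a factor was bound.

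The samples held 7465552 to 14943774 reads on genes (median 9426281), and a member had between 14 and 7515 reads in a sample. Nr4a1, the gene behind the reporter, followed the sort, with 187 to 251 TPM in GFPlo, 351 to 406 TPM in GFPmed and 767 to 917 TPM in GFPhi samples. Markers of SP4 cells (Cd3e, Cd3g, Trac, Cd4, Cd69, Cd24a and Zbtb7b) were present in every sample, though Cd69 fell as given below, with summed levels of 4433 to 5263 TPM in GFPlo and 4372 to 5033 TPM in GFPhi. To compare levels between genes, reads were scaled to exonic length (RPKM, reads per kilobase of exon, scaled to depth). Of the 45 members, 42 lay in all 9 samples above the 95th percentile of 1419 olfactory and vomeronasal receptor genes, which thymocytes should not express and which here stand for background. On this scale the most abundant was Ifi27l2a, a small interferon-induced protein, at a mean of 314 RPKM, followed by Ifi47 at 108 and Igtp at 91.8 RPKM. Mx1 was the least abundant at 2.24 RPKM and exceeded that percentile in 4 of 9 samples, and Ifit3 and Cmpk2 did so in 8 of 9.

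Expression rose with reporter brightness for a part of the set. Between GFPhi and GFPlo samples, 14 of the 45 members rose and none fell at an adjusted p of at most 0.05 (limma on log2(TPM + 1), one model over the 9 samples, Benjamini-Hochberg over all 30693 genes), while 2.38% of all genes tested rose and 1.51% fell by the same rule. At an unadjusted p of at most 0.05, 26 members were higher and 0 lower, beside 6.63% and 7.19% of all genes. With an added limit of 1 on the log2 fold change, 3 members were called higher (Ifi27l2a, Slfn5 and Slfn8) and none lower, beside 1.26% and 0.404% of all genes. In 26 members every GFPhi sample lay above every GFPlo sample, and in none the reverse, against 8.26% and 9.92% of all genes, and in the other 19 the groups overlapped. The median log2 fold change of the 45 was 0.60, with 39 positive and 6 negative values, and that of all genes tested was -0.09. Because 1 was added to TPM before taking log2, the fold changes come out too small for genes with low TPM.

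The count of 14 changed with the samples and scaling used, and with the filter and the trend, as given below. Leaving out GFPlo replicate 1 or GFPmed replicate 2 left 11 members past the threshold, 10 of them among the 14. Leaving out GFPlo replicate 2 or 3 left 5 members past the threshold, GFPmed replicate 1 left 8, GFPmed replicate 3 or GFPhi replicate 1 left 6, GFPhi replicate 2 left 7 and GFPhi replicate 3 left 4. With 1 sample left out, 1.24% to 1.99% of all genes rose, against 2.38% in the main fit. Scaling TPM by the median of ratios left 4 members past the threshold, beside 1.10% of all genes that rose. The median log2 fold change over the 45 was then 0.69, and 81.6% of all calls were in the higher direction, against 61.1% without that scaling. No member passed the threshold in the lower direction in any of these fits. Ifi27l2a passed it in each of the 19 alternatives that were run, Igtp in 18, Irf1 in 17, Ifnar1 and Zbp1 in 16, and Parp9 in 11. The other 8 of the 14 passed in fewer than 10 of the 19: Slfn8 and Trim25 in 8, Irf9, Stat2 and Slfn5 in 7, Ifi47 in 6, Xaf1 in 5 and Ifnar2 in 4.

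Markers of maturation moved with the same groups. Of 7 genes of later single-positive stages 5 rose and 1 fell between GFPlo and GFPhi, with summed levels of 755 to 816 TPM in GFPlo, 894 to 980.4 TPM in GFPmed and 1471 to 1532 TPM in GFPhi. S1pr1, the exit receptor, went from a mean of 7.65 to 222 TPM and Klf2, which drives it, from 87.8 to 537 TPM, while Il7r fell from 199.9 to 56.1 TPM. Of 4 tested markers of earlier thymocytes 3 fell, and their summed level was 332 to 367 TPM in GFPlo and 77.0 to 85.1 TPM in GFPhi, most of it Ccr9. The regulatory T cell genes Foxp3, Ikzf4 and Il2ra all rose, with a sum of 13.7 to 14.1 TPM in GFPlo and 58.9 to 72.8 TPM in GFPhi. Of the genes the gate selects against, Cd8a fell from a mean of 16.7 to 7.15 TPM (adjusted p = 0.0158) and Cd8b1 from 18.9 to 10.5 TPM (adjusted p = 0.00646), and Il2ra, the gene of CD25, rose from 0.665 to 9.73 TPM (adjusted p = 0.000491). Cd69, which the gate selects for, fell from 375 to 216 TPM (adjusted p = 0.0142). The part of these markers in the differences of the interferon-stimulated genes was not tested. In bulk samples a change in the share of cells with a transcript and a change in its level per cell cannot be told apart. Among markers of other lineages, B cell genes summed to 20.6 to 28.8 TPM in GFPlo and 11.7 to 31.1 TPM in GFPhi, macrophage genes to 17.7 to 25.1 and 14.3 to 23.5 TPM, and genes of innate-like T and NK cells to 8.29 to 12.4 and 9.39 to 16.4 TPM. Only 4 of 6 B cell, 3 of 6 macrophage and 3 of 5 innate-like T and NK genes were tested, and none of those passed the threshold. The others did not reach the filter on low values, and no gene of these 3 lists was at 0 in every sample. Of 8 markers of dendritic cells, 7 of them tested, Ccr9, which thymocytes express as well, was the only one to pass, in the lower direction. The group means of the other 7 were at most 8.10 TPM. TPM here divides by a span that includes introns, and Tcf4, at group means of at most 1.81 TPM, had 386 to 775 reads a sample. Of 3 tested genes of thymic epithelium 1 rose (Epcam, 2.79 to 8.78 TPM).

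**Figure D1:**
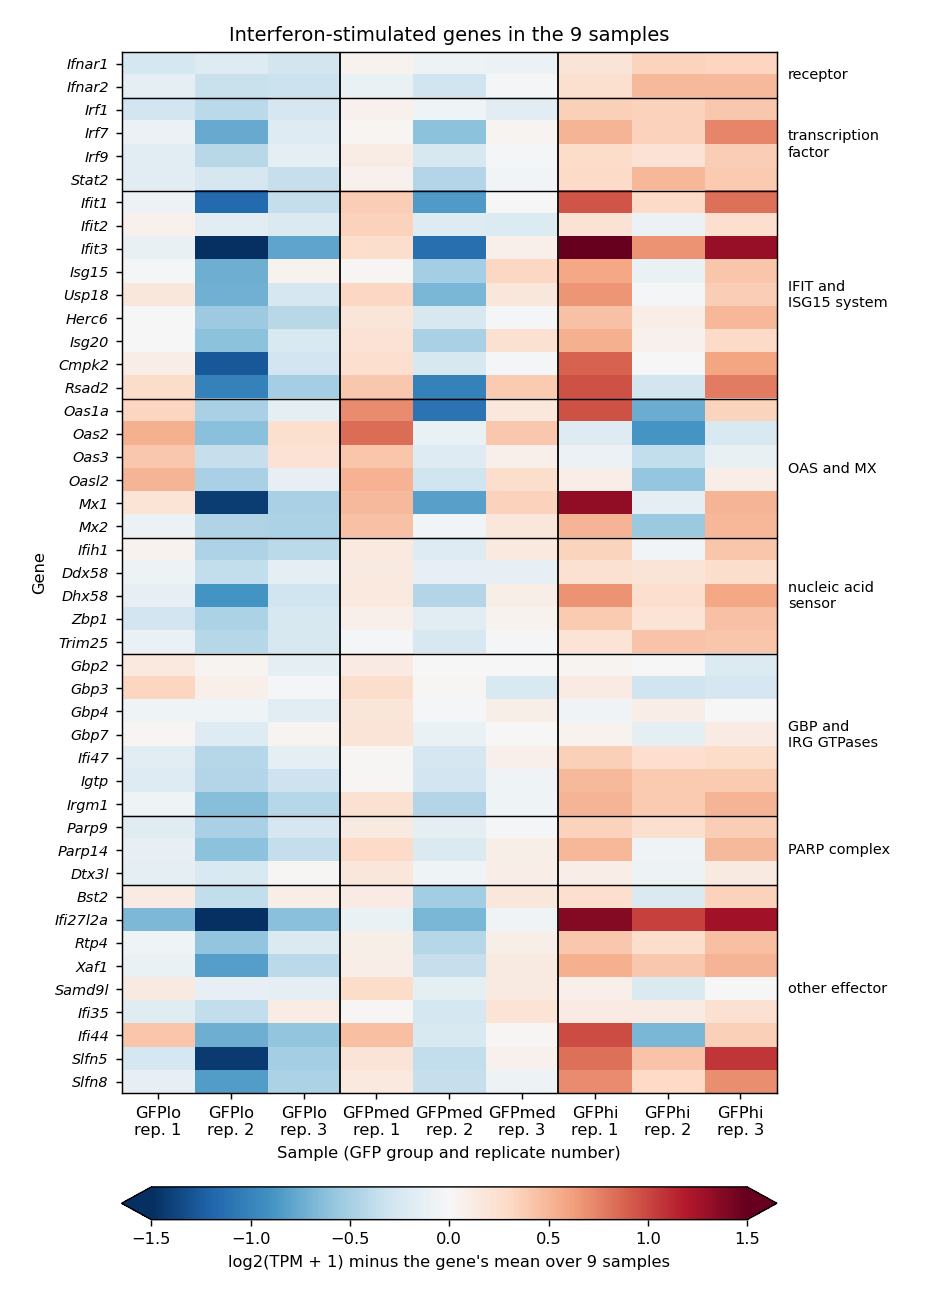
Each row is one of the 45 genes, grouped by role, and each column one of the 9 samples, and colour gives log2(TPM + 1) minus the mean of that gene over the 9 samples, with values beyond 1.5 drawn in the end colours. The GFPhi columns are mostly red and the GFPlo columns mostly blue, except for Oas2, Oas3, Oasl2 and the guanylate-binding proteins, and the column of replicate 2 is the palest or bluest of its group in most rows.

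The receptor was the first step examined. Ifnar1 (chr16:91485238-91507441, GRCm38), the chain that is essential for signalling, had 75.2, 78.8 and 74.8 TPM in GFPlo, 93.6, 85.9 and 84.9 TPM in GFPmed, and 103, 115 and 114 TPM in GFPhi samples (log2 fold change 0.53, standard error 0.07, adjusted p = 0.00597). The 3 groups did not overlap, and the replicates of each group lay close together. Ifnar2 (chr16:91372783-91405589), the chain with the higher affinity for interferon, had 10.8, 9.27 and 9.38 TPM in GFPlo, 11.1, 9.59 and 11.8 TPM in GFPmed, and 14.3, 17.1 and 17.2 TPM in GFPhi samples (log2 fold change 0.67, standard error 0.14, adjusted p = 0.0408). Its GFPlo and GFPmed samples overlapped, and all GFPhi samples lay above them, but it no longer passed when any 1 of the 9 samples was left out. The differences corresponded to 1.45-fold and 1.65-fold ratios of the mean TPM.

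All 4 transcription factors had higher means in GFPhi than in GFPlo samples without overlap, and 3 passed the test. Irf1 (chr11:53770014-53778374), which responds to interferon-γ most of all and also to T cell receptor signals, had 195, 180.1 and 199.6 TPM in GFPlo, 249.98, 228 and 212 TPM in GFPmed, and 305, 303 and 317 TPM in GFPhi samples (log2 fold change 0.68, standard error 0.07, adjusted p = 0.00237). It was the member with the lowest p, and GFPlo, GFPmed and GFPhi formed separate steps. Irf9 (chr14:55603571-55610030), the DNA-binding part of its complex with Stat2, had 326, 273 and 328 TPM in GFPlo, 393, 307 and 360.1 TPM in GFPmed, and 439, 422 and 471 TPM in GFPhi samples (log2 fold change 0.53, standard error 0.11, adjusted p = 0.0417). Stat2 (chr10:128270559-128292849), its partner, had 70.8, 66.9 and 62.5 TPM in GFPlo, 83.3, 58.4 and 77.7 TPM in GFPmed, and 97.1, 113 and 104 TPM in GFPhi samples (log2 fold change 0.64, standard error 0.13, adjusted p = 0.0424). For both, the GFPmed samples overlapped those of GFPlo and all GFPhi samples were higher. Irf7 (chr7:141262706-141266481), the factor that amplifies type I interferon production, had 380.0, 238 and 353 TPM in GFPlo, 411, 263 and 417 TPM in GFPmed, and 576, 514 and 669 TPM in GFPhi samples. Its GFPhi mean was 1.81-fold that of GFPlo, but its replicates spread widely and it did not pass the test (log2 fold change 0.88, standard error 0.23, adjusted p = 0.103).

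**Figure D2:**
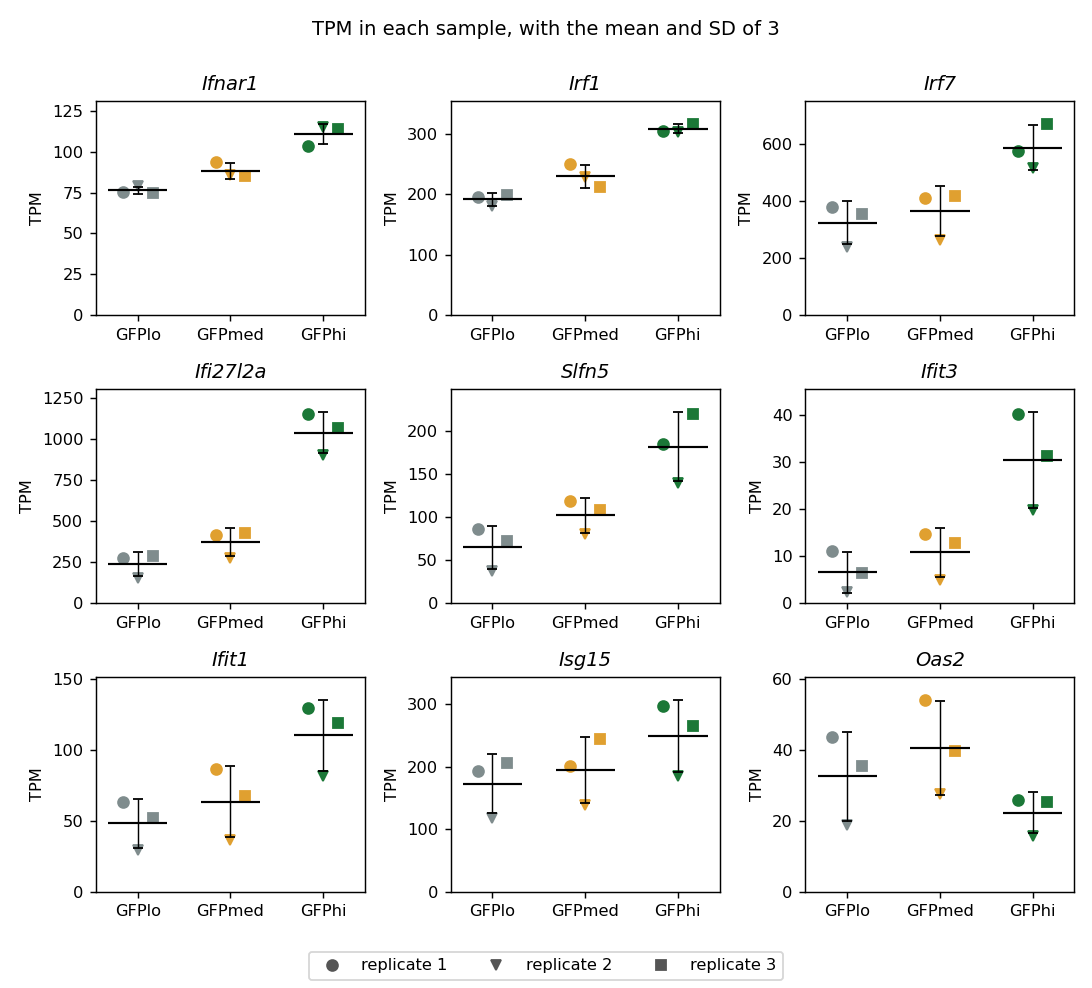
TPM of 9 genes in each sample, with circles, triangles and squares for replicates 1, 2 and 3, a horizontal line for the mean of 3 and a bar for the SD, and axes that start at 0. Ifnar1 and Irf1 form tight steps, Irf7, Ifi27l2a, Slfn5, Ifit3 and Ifit1 have GFPhi samples above all GFPlo samples with replicate 2 lowest in each group, and Isg15 and Oas2 overlap between groups.

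The Ifit and Isg15 group holds classical targets of type I interferon: the Ifit proteins bind foreign RNA, Isg15 is a ubiquitin-like modifier that Herc6 attaches and Usp18 removes, Isg20 and Rsad2 (viperin) act against viral RNA and lipid assembly, and Cmpk2 is a mitochondrial nucleotide kinase. All 9 had higher means in GFPhi than in GFPlo samples and GFPmed means in between, but none passed the test, although 4 (Ifit1, Ifit3, Herc6 and Isg20) had no overlap between GFPhi and GFPlo. Ifit3 (chr19:34583531-34588731) had 11, 2.36 and 6.55 TPM in GFPlo, 14.7, 4.95 and 12.8 TPM in GFPmed, and 40.1, 19.9 and 31.3 TPM in GFPhi samples. Its GFPhi mean of 30.4 ± 10.2 TPM (SD, n = 3) was 4.58-fold the GFPlo mean of 6.64 ± 4.33 TPM, the largest ratio in the set (log2 fold change 2.17, standard error 0.55, adjusted p = 0.0855). Ifit1 (chr19:34640871-34650009) had 63.5, 29.1 and 51.8 TPM in GFPlo, 86.9, 36.6 and 67.3 TPM in GFPmed, and 129.7, 81.9 and 119 TPM in GFPhi samples (log2 fold change 1.22, standard error 0.38, adjusted p = 0.169). In both genes replicate 2 of each group had far fewer transcripts than replicates 1 and 3, and that spread within groups enters the standard error. Isg15 (chr4:156199424-156200818) had 194, 118 and 206 TPM in GFPlo, 201, 139 and 245 TPM in GFPmed, and 298, 185 and 265 TPM in GFPhi samples, and its GFPhi replicate 2 lay below 2 of the 3 GFPlo samples (log2 fold change 0.54, standard error 0.29, adjusted p = 0.505). The log2 fold changes of Cmpk2, Rsad2, Herc6, Usp18, Isg20 and Ifit2 were 0.98, 0.90, 0.67, 0.60, 0.58 and 0.23, with adjusted p from 0.170 to 0.734. With replicate number as a block in limma, Ifit3, Ifit1, Isg15 and Usp18 passed (adjusted p = 0.00745, 0.00846, 0.0471 and 0.0483). The others of this group did not pass, and 1.91% of all genes rose in that fit. Samples of the same replicate number are not stated to share mice. Reads that match Ifit3 or Ifit1 and the related Ifit3b or Ifit1bl1 equally cannot be assigned to 1 gene. The log2 fold changes of Ifit3b and Ifit1bl1 were 1.64, adjusted p = 0.174, and 1.63, adjusted p = 0.0704.

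Among the Oas and Mx genes no member passed the test. Oas proteins make 2′-5′ oligoadenylates that activate RNase L, and Mx proteins are GTPases that block viral nucleocapsids, though the Mx1 allele of C57BL/6 mice is known to be defective. In none of the 6 did every GFPhi sample lie above GFPlo, and 3 had negative log2 fold changes. Oas2 (chr5:120730333-120749853) had 43.4, 18.8 and 35.3 TPM in GFPlo, 54.0, 27.6 and 39.7 TPM in GFPmed, and 25.9, 15.6 and 25.2 TPM in GFPhi samples, so that its GFPmed mean was the highest and its GFPhi mean the lowest (log2 fold change -0.48, standard error 0.36, adjusted p = 0.685, 95% interval -1.33 to 0.36). Oas3 (chr5:120753098-120777661) had 54.8, 32.3 and 48.0 TPM in GFPlo, 55.5, 36.0 and 43.6 TPM in GFPmed, and 38.6, 31.7 and 38.0 TPM in GFPhi samples (log2 fold change -0.28, standard error 0.22, adjusted p = 0.705, 95% interval -0.80 to 0.24). The log2 fold change of Oasl2 was -0.09 and turned positive without GFPlo replicate 1, without GFPhi replicate 2 and by limma-voom with the authors' size factors, and that of Oas1a was 0.28 and turned negative without GFPhi replicate 1. Mx1 (chr16:97447035-97462907) had 4.63, 0.812 and 2.46 TPM in GFPlo, 5.83, 1.77 and 5.19 TPM in GFPmed, and 11.2, 3.40 and 5.92 TPM in GFPhi samples, on 14 to 250 reads a sample, and the largest log2 fold change of the group at 1.13 (adjusted p = 0.460). Mx2 had 0.49 (adjusted p = 0.623). The intervals of Oas2 and Oas3 include 0, and the p-values do not show that the groups were alike.

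Of the 5 nucleic acid sensors and their partners, 2 rose and the other 3 had positive values. Zbp1 (chr2:173206612-173218923), which senses left-handed nucleic acid and can start necroptosis, had 97.7, 85.4 and 101 TPM in GFPlo, 126, 106 and 124 TPM in GFPmed, and 156, 138 and 162 TPM in GFPhi samples (log2 fold change 0.68, standard error 0.10, adjusted p = 0.0115). Its 3 groups did not overlap. Trim25 (chr11:88999376-89020293), a ubiquitin ligase for RIG-I, had 47.5, 37.7 and 42.8 TPM in GFPlo, 50.2, 42.9 and 50.5 TPM in GFPmed, and 59.0, 68.6 and 68.2 TPM in GFPhi samples (log2 fold change 0.61, standard error 0.12, adjusted p = 0.0289). Ddx58, the RIG-I gene, and Dhx58, which encodes the related LGP2, had no overlap between GFPhi and GFPlo but missed the threshold, with log2 fold changes of 0.43 (adjusted p = 0.0673) and 0.94 (adjusted p = 0.0850). Ifih1, the MDA5 gene, had 0.50 (adjusted p = 0.352) with overlapping groups.

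The 7 interferon-inducible GTPases belong to 2 families, of which the first held both members that passed. The immunity-related GTPases, which act on the membranes of vacuoles that hold pathogens, are represented by Igtp, Ifi47 and Irgm1, and in these 3 every GFPhi sample lay above GFPlo. Of the further genes of that family listed, Irgm2 overlapped (log2 fold change 0.38, adjusted p = 0.441), Tgtp1 did not pass (0.98, adjusted p = 0.0861) and Tgtp2 rose (1.08, adjusted p = 0.0103). Tgtp1 and Tgtp2 are close copies, and reads that match both equally cannot be assigned to 1 of them. Igtp (Irgm3, chr11:58199556-58207591) had 114, 95.7 and 105 TPM in GFPlo, 132, 107 and 126 TPM in GFPmed, and 183, 171 and 172 TPM in GFPhi samples (log2 fold change 0.74, standard error 0.10, adjusted p = 0.00587), and Ifi47 (chr11:49076587-49096974) had 119, 99.0 and 122 TPM in GFPlo, 136, 112 and 142 TPM in GFPmed, and 172, 160.3 and 162 TPM in GFPhi samples (log2 fold change 0.54, standard error 0.11, adjusted p = 0.0387). Irgm1 missed the threshold with a larger log2 fold change of 0.85 and a larger standard error of 0.19 (adjusted p = 0.0581). The 4 guanylate-binding proteins did not pass, although every GFPhi sample of Gbp4 lay above GFPlo: the log2 fold changes of Gbp2, Gbp3, Gbp4 and Gbp7 were -0.07, -0.27, 0.11 and 0.06, with adjusted p of 0.603 to 0.905. The value of Gbp2 turned positive under median-of-ratios scaling, by limma-voom with the authors' size factors and without GFPhi replicate 3. The 95% intervals ran from -0.05 to 0.28 for Gbp4 and from -0.32 to 0.17 for Gbp2, and ended below the 0.74 of Igtp. Of the further guanylate-binding proteins listed, Gbp6 (1.29, adjusted p = 0.0259) and Gbp9 (0.60, adjusted p = 0.0364) rose. Gbp5 (1.27, adjusted p = 0.0607) and Gbp8 (0.27, adjusted p = 0.533) did not pass. The difference between the families was not tested. Igtp shares 8.01% of its exonic bases with Irgm2, and Ifi47 8.78% with neighbours, and reads in the shared bases cannot be assigned to 1 gene.

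Parp9 and Dtx3l form a complex of an ADP-ribosyltransferase-like protein and a ubiquitin ligase, and Parp14 is a further ADP-ribosyltransferase. Parp9 (chr16:35938470-35972605) had 37.1, 29.9 and 35.4 TPM in GFPlo, 46.5, 38.3 and 41.2 TPM in GFPmed, and 53.8, 49.9 and 55.0 TPM in GFPhi samples, in separate steps (log2 fold change 0.62, standard error 0.11, adjusted p = 0.0214). Parp14 had a similar value with a wider spread (log2 fold change 0.68, standard error 0.20, adjusted p = 0.152). Dtx3l, which starts beside Parp9 and shares 8.0% of its exonic bases with it on the opposite strand, had 97, 92.2 and 109 TPM in GFPlo, 121, 103 and 116 TPM in GFPmed, and 116, 102 and 119 TPM in GFPhi samples, with overlapping groups (log2 fold change 0.17, standard error 0.10, adjusted p = 0.529). The library kit does not mark strand, so reads in the shared bases cannot be assigned.

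The other effectors held all 3 members past the limit on the fold change. Ifi27l2a (chr12:103442167-103443680) had 278, 154 and 286 TPM in GFPlo, 414, 277 and 429.9 TPM in GFPmed, and 1151, 903 and 1066 TPM in GFPhi samples. Every GFPhi sample was at least at 903 TPM and no other sample exceeded 429.9 TPM, a 4.34-fold ratio of GFPhi to GFPlo means (log2 fold change 2.16, standard error 0.27, adjusted p = 0.00475). Slfn5 (chr11:82951349-82964840), of the Schlafen family that restrains proliferation and translation, had 86.1, 37.7 and 72.7 TPM in GFPlo, 119, 80.1 and 108 TPM in GFPmed, and 186, 140.0 and 221 TPM in GFPhi samples (log2 fold change 1.52, standard error 0.32, adjusted p = 0.0431), and Slfn8 (chr11:83002158-83020810) had 32.6, 19.4 and 25.4 TPM in GFPlo, 39.4, 27.8 and 33.7 TPM in GFPmed, and 58.8, 43.9 and 58.5 TPM in GFPhi samples (log2 fold change 1.05, standard error 0.21, adjusted p = 0.0395). Slfn5 shares 8.84% of its exonic bases with an antisense transcript, and reads that match Slfn8 and other Schlafen genes equally cannot be assigned to 1 gene. Xaf1 (chr11:72301629-72313733), which opposes inhibitors of apoptosis, had 30.4, 18 and 24.3 TPM in GFPlo, 35.0, 25.4 and 35.8 TPM in GFPmed, and 47.5, 43.5 and 46.7 TPM in GFPhi samples (log2 fold change 0.92, standard error 0.20, adjusted p = 0.0490). Rtp4 and Ifi35 had no overlap between GFPhi and GFPlo but did not pass, with log2 fold changes of 0.66 (adjusted p = 0.125) and 0.30 (adjusted p = 0.456). Ifi44 at 0.52, Bst2 (tetherin) at 0.18 and Samd9l at -0.01 overlapped, with adjusted p from 0.749 to 0.987, and the value of Samd9l was positive in 6 of the 19 alternatives.

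**Figure D3:**
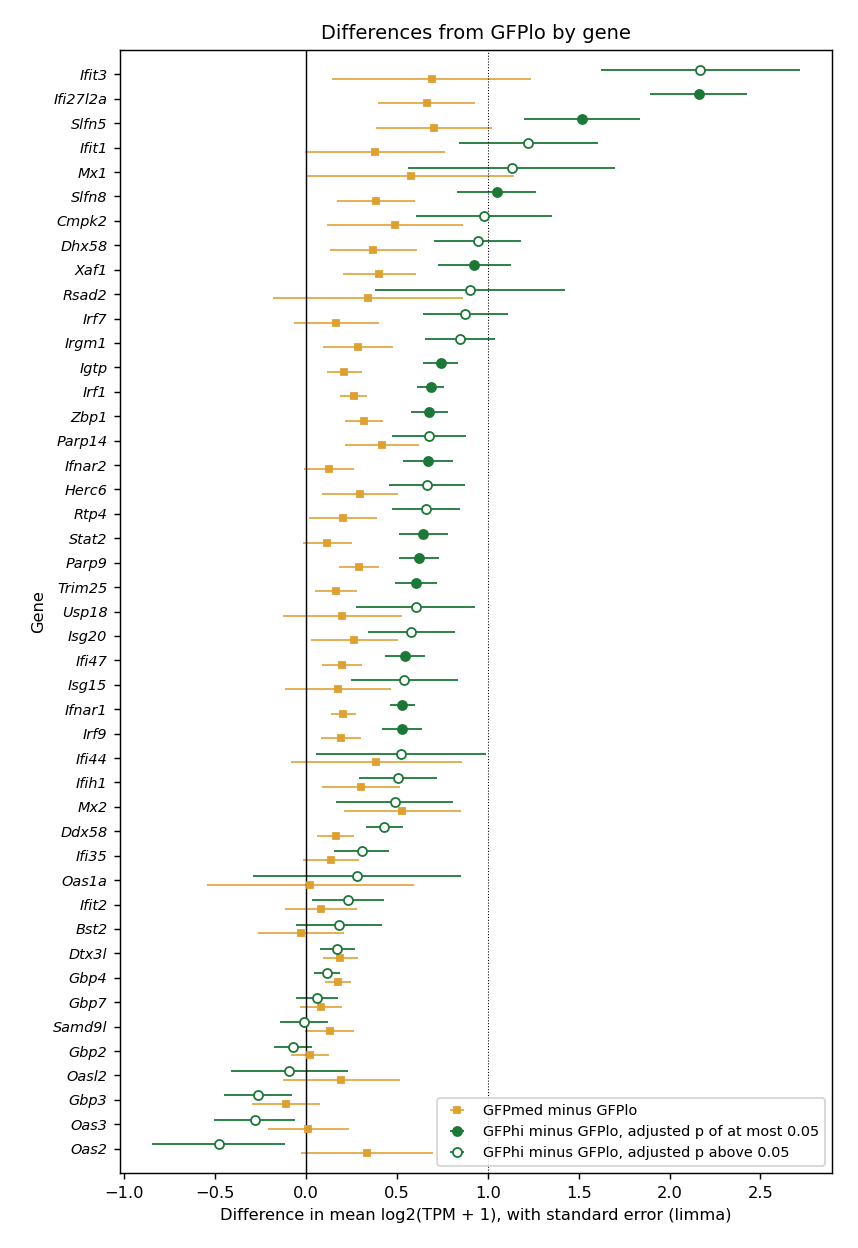
Differences in mean log2(TPM + 1) from GFPlo for the 45 genes, in the order of the GFPhi difference, with circles for GFPhi and squares for GFPmed, bars for the standard error from limma, and filled circles for an adjusted p of at most 0.05. Filled circles run from 0.53 (Irf9) to 2.16 (Ifi27l2a), larger differences such as Ifit3 at 2.17 have wide bars, and most squares lie between 0 and the circle of the same gene.

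Expression in GFPmed samples lay between the others for most members. Of the 39 members with a higher mean in GFPhi than in GFPlo, 34 had a GFPmed mean of log2(TPM + 1) between them, and so did all 14 that passed the test. In those 14 the GFPmed mean had covered from 0.180 (Stat2) to 0.472 (Parp9) of the distance from GFPlo to GFPhi, with a median of 0.365, beside 0.328 for all 730 genes that rose. GFPmed against GFPlo passed the threshold for 0 members by limma (6 at an unadjusted p of at most 0.05, all higher, beside 2.73% of all genes higher) and for 0 by limma-voom on the solved reads, and for 0.0749% of all genes. Between GFPhi and GFPmed 3 members rose: Ifi27l2a (1.5, adjusted p = 0.0419), Irf1 (0.42, adjusted p = 0.0365) and Igtp (0.53, adjusted p = 0.0446), against 0.899% of all genes, and none fell. Ifi27l2a was the one member past the limit on the fold change there. In 4 members (Ifnar1, Irf1, Zbp1 and Parp9) the 3 groups rose without overlap, as in 1.67% of all genes. The test of curvature, which asks whether GFPmed departs from the midpoint of GFPlo and GFPhi, passed for 0 members by limma (0 at an unadjusted p of at most 0.05) and 0 by limma-voom, and for 0.0195% of all genes. The comparisons share samples, so their values are not independent of each other.

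A second pattern ran across the groups. Replicate 2 was the lowest sample of its group in GFPlo, in GFPmed and in GFPhi for 33 of the 45 members, against 5.31% of all genes tested, and neither replicate 1 nor replicate 3 was the lowest in all 3 groups for any member, against 4.17% and 5.43%. The summed TPM of the 45 genes in replicates 1, 2 and 3 was 3470.1, 2528 and 3253 in GFPlo, 4128, 2999.5 and 3921 in GFPmed and 5616, 4736 and 5616 in GFPhi. An F-test of replicate number within the model gave an unadjusted p of at most 0.05 for 31 members and for 10.4% of all genes, but an adjusted p of at most 0.05 for 0 members by limma (lowest 0.273), for 17 by limma-voom with library totals and for 3 with the authors' size factors. The share of all genes by limma-voom is not given, so those counts cannot be set against it. On TPM scaled by the median of ratios, or on reads over the authors' size factors, replicate 2 was lowest in all 3 groups for 19 members, against 4.10% and 4.08% of all genes. The samples numbered 2 did not stand together in Nr4a1, at 187, 351 and 917 TPM, which was the lowest of its group in GFPlo and GFPmed and the highest in GFPhi, nor in depth, at 9426281, 9040358 and 10973797 reads. Their reads on olfactory and vomeronasal receptor genes were 3056, 2978 and 2154 RPM (reads scaled to a fixed library size), lowest of the group in GFPmed and GFPhi.

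The members that were low in replicate 2 were only in part those that rose with GFP. Mx1, Oas1a, Ifit3 and Rsad2 were lowest relative to the other replicates, with TPM in replicate 2 at 0.307, 0.366, 0.378 and 0.410 of the mean of replicates 1 and 3 (geometric mean over the 3 groups). Oas2, Oasl2 and Oas3, at 0.556, 0.611 and 0.723, shared the low replicate 2 and had negative log2 fold changes between GFPhi and GFPlo. Ifnar1, Irf1, Ifnar2, Stat2 and Trim25 stood at 1.02, 0.959, 0.942, 0.935 and 0.915 and rose with GFP. Ifi27l2a, Slfn5 and Slfn8, at 0.664, 0.613 and 0.725, did both. So did Xaf1 at 0.758, Zbp1 at 0.857, Irf9 at 0.858, Ifi47 at 0.862, Parp9 at 0.871 and Igtp at 0.889, each lowest in replicate 2 of every group. By role, replicate 2 was the lowest in all 3 groups for 8 of 9 members of the Ifit and Isg15 group and 5 of 6 Oas and Mx genes. It was so for 3 of 3 genes around Parp9, 4 of 5 nucleic acid sensors, 7 of 9 other effectors and 4 of 7 GTPases. Among receptor chains it was so for 0 of 2, and among transcription factors for 2 of 4. With all 3 samples numbered 2 left out, 40 members had positive log2 fold changes between GFPhi and GFPlo with a median of 0.57, and 1 passed the threshold with 2 samples a group.

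**Figure D4:**
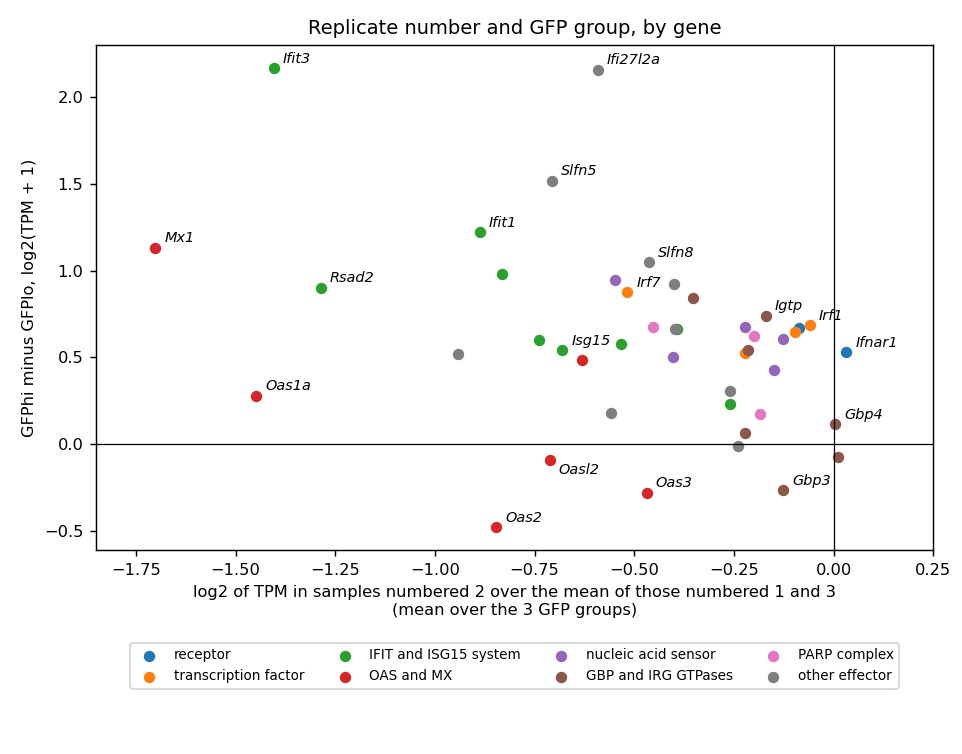
Each point is one of the 45 genes, coloured by role, with the log2 ratio of TPM in the samples numbered 2 to the mean of those numbered 1 and 3 (mean over the 3 groups) on the horizontal axis and the log2 fold change between GFPhi and GFPlo on the vertical axis. The receptor chains and most transcription factors lie near 0 on the horizontal axis and above 0 on the vertical one, Oas2, Oas3 and Oasl2 lie to the left and below 0, and Ifit3, Ifit1 and Slfn5 lie to the left and high.

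The GAAA motif stood before members that rose and before members that did not pass the test. Of the 17 members with the GAAA motif in the window, 4 (Igtp, Slfn5, Slfn8 and Stat2) passed the test between GFPhi and GFPlo, with a median log2 fold change of 0.54 over the 17. Of the 17 with a window but no match, 7 passed, among them Irf1, Ifnar1 and Trim25, with a median of 0.54. Values ran from -0.28 (Oas3) to 2.17 (Ifit3) with the motif and from -0.09 (Oasl2) to 0.98 (Cmpk2) without it. Replicate 2 was lowest in all 3 groups for 14 of the 17 genes with the motif and for 10 of the 17 without it. These are counts over windows that reach 250 bases upstream, with no test.

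The rest of the pathway was read from a list of 40 further genes, of which 35 were tested. Between GFPhi and GFPlo 5 of the 35 rose and none fell by limma, beside 2.38% and 1.51% of all genes. At an unadjusted p of at most 0.05, 10 were higher and 2 lower, beside 6.63% and 7.19% of all genes. The median log2 fold change of the 35 was 0.09. Downstream of the receptor the genes that rose were the transcription factor Stat3 (0.73, adjusted p = 0.00647) and the kinase Jak2 (0.79, adjusted p = 0.0208), which serves the interferon-γ and cytokine receptors. The remaining 3 were Irf8 (1.21, adjusted p = 0.0263), which had 34 to 184 reads and exceeded the 95th percentile of the olfactory and vomeronasal receptors in 1 of 9 samples, the endosomal RNA sensor Tlr7 (1.13, adjusted p = 0.00433) and the kinase Ikbke (0.54, adjusted p = 0.00547), which phosphorylates Irf3 and Irf7. The kinases of the type I receptor had log2 fold changes of 0.35, adjusted p = 0.101, for Tyk2 and 0.17, adjusted p = 0.459, for Jak1. The interferon-γ receptor chains Ifngr1 and Ifngr2 had 0.09, adjusted p = 0.799, and 0.33, adjusted p = 0.157. None of the 7 negative regulators passed, with Socs1, an inhibitor of the Jak kinases, at -0.45, adjusted p = 0.268.

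Interferon transcripts themselves gave few reads. Of the 10 ligand genes listed, 7 were tested and none passed. Ifna1, Ifna2, Ifna5 and Ifnl2 had at most 14 reads in any sample and exceeded the 95th percentile of the olfactory and vomeronasal receptors in 0 of 9 samples. Ifna4 had 1 to 26 reads and exceeded that percentile in 4 of 9 samples, Ifnl3 had 8 to 37 and exceeded it in 6, and Ifnb1 had 25 to 67 and exceeded it in 9 of 9. The log2 fold change of Ifnb1 was -0.45, adjusted p = 0.656, and no rise in GFPhi was detected. Ifng, Ifne and Ifnk were not analysed here.

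A further list of 76 genes known to respond to interferon, none of them a member, was read the same way. Of 73 tested, 18 rose between GFPlo and GFPhi, beside 2.38% of all genes, and none fell by limma (36 higher and 1 lower at an unadjusted p of at most 0.05), with a median log2 fold change of 0.46 and 43 without overlap in the higher direction, beside 8.26% of all genes. The 10 with the lowest p were Shisa5 (0.77, adjusted p = 0.000149), Lgals9 (1.00, adjusted p = 0.000742), Apobec3 (0.82, adjusted p = 0.000770), Parp11 (1.07, adjusted p = 0.00200), Ly6e (0.71, adjusted p = 0.00250), Trafd1 (1.2, adjusted p = 0.00510), Slfn2 (0.63, adjusted p = 0.00646), Ifi203 (1.45, adjusted p = 0.00718), Phf11b (1.93, adjusted p = 0.00721) and Slfn1 (1.71, adjusted p = 0.00798). Of 9 tested genes of the DNA-binding Ifi200 family and its relative Aim2, 5 rose and none fell: Ifi203, Mndal, Ifi206, Ifi209 and Ifi214, the last of which exceeded the background percentile in 4 of 9 samples. Ifi213 (1.55, adjusted p = 0.0614), Ifi208 (0.47, adjusted p = 0.151), Aim2 (0.65, adjusted p = 0.197) and Ifi204 (-0.07, adjusted p = 0.957) did not pass. Gbp6 and Gbp9 rose (1.29, adjusted p = 0.0259, and 0.60, adjusted p = 0.0364), while Gbp5 (1.27, adjusted p = 0.0607) and Gbp8 (0.27, adjusted p = 0.533) did not pass. Replicate 2 was lowest in all 3 groups for 23 of the 73, beside 5.31% of all genes.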

How the data were processed

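RNA was measured in 9 samples of 10000 sorted cells, 3 per GFP group, grouped by their labels. The authors amplified cDNA by SMART-seq v4, aligned reads with STAR 2.7.11b to GRCm38 (mm10, GENCODE vM25), dropped duplicate reads of identical sequence, took gene counts and deposited TPM (transcript levels scaled to a fixed sum per sample). The authors also deposited group means of read counts over DESeq2 1.34.0 size factors (a signal per group). Their fold changes, adjusted p-values and call flags were not used. The table left 0 sample columns unused.

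TPM and group means together gave whole reads for 41578 of 41978 genes (100% within 0.01 of a whole number, 400 genes unsolved), 7465552 to 14943774 per sample. The TPM divisor equalled, within 1%, the genomic span averaged over a gene's transcripts (with introns) for 97.3% of 20121 protein-coding genes. Members were therefore ranked by level only as RPKM over exonic length. Sums of TPM over several genes, and TPM levels of markers, give little weight to genes with long introns. Reads carry no molecular identifiers, so depth covers counting error only.

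Because the values are TPM, the main test was limma 3.58.1 (R 4.3.3, eBayes with a trend) on log2(TPM + 1), one model over 9 samples, for the 30693 genes that reached 1 TPM in at least 3 samples, with Benjamini-Hochberg adjustment over all of them. A gene passed at an adjusted p of at most 0.05, and was called with a log2 fold change of at least 1 besides. The fit was tested on simulated reads. Alternatives tried were 0.1 as pseudocount, leaving out the filter, raising it to 5 TPM, median-of-ratios scaling, only the 2 groups compared, no trend, a replicate block and each sample left out. Limma-voom on the solved reads and leaving out all samples numbered 2 were added after seeing the data. Coordinates and exonic lengths came from a GENCODE release of the same build, and promoter windows from RefSeq (GRCm38.p6, matched by symbol for 34 of 45 members).

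The members and the other gene lists were chosen with earlier results of these data known. Every member is accounted for by role. Values in each sample are given for members that passed between GFPhi and GFPlo and for Irf7, Irf9, Stat2, Ifnar1 and Ifnar2, then the largest difference per role, and from the other lists the 10 genes with the lowest p. Values in each sample of Ifit1, Isg15, Oas2, Oas3 and Dtx3l were added after they were seen. A further gene of the pathway list is not reported here.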

Additional observations from a re-analysis of the deposited data

How the results depend on the processing

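All 14 members that passed between GFPhi and GFPlo kept a positive log2 fold change in the 19 alternatives. Of the 855 single-gene values, 702 kept their side of the threshold, 117 no longer passed, 34 newly passed, 2 moved by more than the spread between replicates, and 0 of the values that had passed changed sign. The number of members past the threshold is given here with the share of all genes that rose in the same fit. It was 14 (2.38%) and became 7 with no filter (1.59%), 6 with only the 2 groups compared (1.43%) and 4 without the trend (1.91%). Median-of-ratios scaling gave 4 (1.10%), and limma-voom scaled by library totals and by the authors' size factors gave 23 (4.05%) and 26 (2.84%). With all samples numbered 2 left out, where fewer samples are used, it was 1 (0.245%). Leaving out 1 sample gave 4 to 11 (1.24% to 1.99%). All 14 were among the 23 and the 26, which also held Ifit3 (adjusted p = 0.00550 and 6.3e-07), Ifit1 and Irf7. The 3 members called with the fold limit became 1 with no filter, only the 2 groups, no trend or no samples numbered 2, 5 and 10 by limma-voom, and 1 to 5 with a sample left out. Between GFPhi and GFPmed the 1 called member became 0 with no filter, median-of-ratios scaling or no trend, 2 by limma-voom with either scaling, and 0 to 1 with a sample left out. For these counts with the fold limit, the share of all genes called in the same fit is not given. Replicate number passed for 0 members by limma and for 17 and 3 by limma-voom, where the share of all genes is not given. The causes of these shifts were not tested.

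Samples that share a replicate number are not stated to share mice. Deviations from the group means correlated at 0.0122 to 0.225 for the 9 pairs of the same number (mean 0.0609). For the 18 pairs of different numbers they correlated at -0.185 to 0.148 (mean -0.0305). Not every sample correlated best with one of its own number, and pairing was not taken as given. With the replicate number as a block, 20 members passed between GFPhi and GFPlo (11 of the 14, without Ifnar2, Stat2 and Trim25, and 9 others), beside 1.91% of all genes that rose. The 9 others were Irf7, Ifit1, Ifit3, Isg15, Usp18, Dhx58, Irgm1, Parp14 and Rtp4. Of the members, 5 were called there with the fold limit, and 2 were called between GFPhi and GFPmed. The share of all genes called with that limit in this fit is not given.

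Some members had few reads: 6 had fewer than 100 in some sample, with Mx1 at 14 and Ifit3 at 20 the lowest. With 3 samples a group, Ifit3 (standard error 0.55), Ifit1 and Mx1 had log2 fold changes above 1 and did not pass in the main fit. Ifit1 had 434 to 2493 reads a sample, and the standard error of Ifit3 was 0.20 with the replicate block. The part of depth in these results was not tested.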
